A study of Xenopus laevis with 24 samples.

Results

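Transcripts of the Notch pathway and of the Hes and Hey repressor genes were followed in cultured embryo tissue of the African clawed frog, *Xenopus laevis*. The members are the gene models whose deposited name begins with a Notch receptor, a Delta or Jagged ligand, a Fringe, Deltex, Numb, Mastermind or Rbpj gene, Nrarp, or a Hes or Hey gene. This name rule takes 65 of the 31694 gene models. Of these, 61 are Notch genes: 7 ligand models, 5 receptor models, 14 modulator models, 6 models of the transcriptional core, 1 feedback inhibitor and 28 Hes and Hey models. The other 4 (*dlc1.L*, *dlc1.S*, *mamld1.L* and *mamld1.S*) match the name rule but were not taken as Notch genes, and were counted apart. All 65 passed the filter on low counts. *X. laevis* is allotetraploid, and the endings L and S mark the 2 copies, or homeologs, that it carries of many genes.

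Dorsal marginal zone (DMZ) tissue, the dorsal equatorial belt of the gastrula that holds the Spemann organizer, was cut at stage 10.5 and cultured. Samples of 5 or 6 DMZ explants were taken when intact clutch mates had reached gastrula stages 11, 11.5, 12 and 12.5, early neurula stages 13, 14 and 15, and late neurula stages 16, 17 and 18. Stage-11 samples of the ventral marginal zone (VMZ, 5 explants cut at stage 10.5) and of the animal cap, the prospective ectoderm (20 explants cut at stage 8), complete the 12 groups of 2 libraries each. The labels name no transgene, morpholino or drug for any group, and fertilised eggs were kept at 16 °C until stage 10.5. Each library pools explants, and the labels do not say whether the replicates came from separate clutches, so a p-value here reflects only how these samples vary, which may be technical.

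Notch is a transmembrane receptor that is cut after it binds a Delta or Jagged ligand on a neighbouring cell. The freed intracellular domain enters the nucleus, joins the DNA-binding protein Rbpj and a Mastermind coactivator, and switches on target genes, among them many Hes genes. Hes proteins are basic helix-loop-helix repressors. In the neural plate they hold back proneural genes in cells next to a Delta-bearing neuronal precursor (lateral inhibition), and in the paraxial mesoderm several Hes and Delta genes take part in the segmentation of somites.

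Levels are given in CPM, the count of a model as a share of the scaled library size. They are not corrected for transcript length, so levels are compared only between samples of the same model. A model was called changed at an adjusted p under 0.05 in edgeR's quasi-likelihood test, adjusted by the Benjamini-Hochberg method over the 31349 models tested. Log2 fold changes are given ± SE and means ± SD (n = 2 libraries per group). Total counts per library lay between 21871182 and 39827863 except in DMZ stage 11 replicate 2 (7375650) and DMZ stage 17 replicate 1 (14570725). The marker lists matched the labels for the DMZ: the summed level of 17 organizer and notochord models was 1218 and 1901 CPM in the DMZ at stage 11, 192 and 153 CPM in the VMZ and 55.0 and 91.1 CPM in the cap. The summed level of 8 pan-mesodermal models was 1141 and 1212 CPM in the DMZ, 1680 and 829 CPM in the VMZ and 27.3 and 49.7 CPM in the cap. The 17 ventral markers summed to 1417 and 888 CPM in the VMZ, against 1853 and 1699 CPM in the cap. Of these 17, 2 were called higher and 0 lower in the VMZ than in the cap, where 0.721% and 0.313% of all models were. The median log2 difference of the 17 was -0.51, so the list did not set the VMZ apart from the cap. *wnt8a.L* was at 113 and 34.9 CPM in the VMZ, against 0.94 and 0.68 CPM in the cap. In the other direction, *bambi.L* was at 184 and 130 CPM in the VMZ, against 374 and 299 CPM in the cap. No model of these lists was at 0 in both libraries of a group.

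Over the 10 DMZ stages the members moved in different directions. For any change over the 10 stages, 16 of the 61 Notch models were called, where 30% of all models tested were called. They were 2 of 7 ligand, 0 of 5 receptor, 4 of 14 modulator and 1 of 6 core models, 0 of 1 feedback model and 9 of 28 Hes and Hey models. With the replicate number as a block 28 of the 61 were called, where 45.6% of all models were, and DESeq2 called 25, where it called 40.1% of all models. Leaving out single libraries gave 8 to 17 calls, and 8 of the 16 calls held without each of the 20 DMZ libraries in turn: *hes1.S*, *hes1.L*, *hes5.1.S*, *hes5.2.S*, *dtx1.L*, *dtx2.S*, *dtx4.L* and *maml2.S*. In whole explants, fewer cells of a type and less RNA per cell cannot be told apart.

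Between stage 18 and stage 11, 18 of the 61 models were higher and 6 lower, where 20.9% of all models were higher and 19.6% lower (40.4% called in all). Leaving out any 1 of the 4 libraries gave 13 to 15 higher and 1 to 3 lower: 3 lower without either stage-11 library, 1 without DMZ stage 18 replicate 1 and 2 without DMZ stage 18 replicate 2. Fewer of all models were called in each of these fits too. The libraries of the 2 stages did not overlap for 31 higher and 16 lower members, where 37.1% and 33.6% of all models were so. The median log2 change of the 61 was 0.47, against 0.02 over all models, and 41 of the 61 had a positive value. For the 28 Hes and Hey models alone 10 were higher, 3 were lower and the median was 1.17. Of the 61, 21 had their highest DMZ stage mean at stage 18 and 11 had it at stage 11, where 23.7% and 28.6% of all models did. No member peaked at stage 12.

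**Figure D1:**
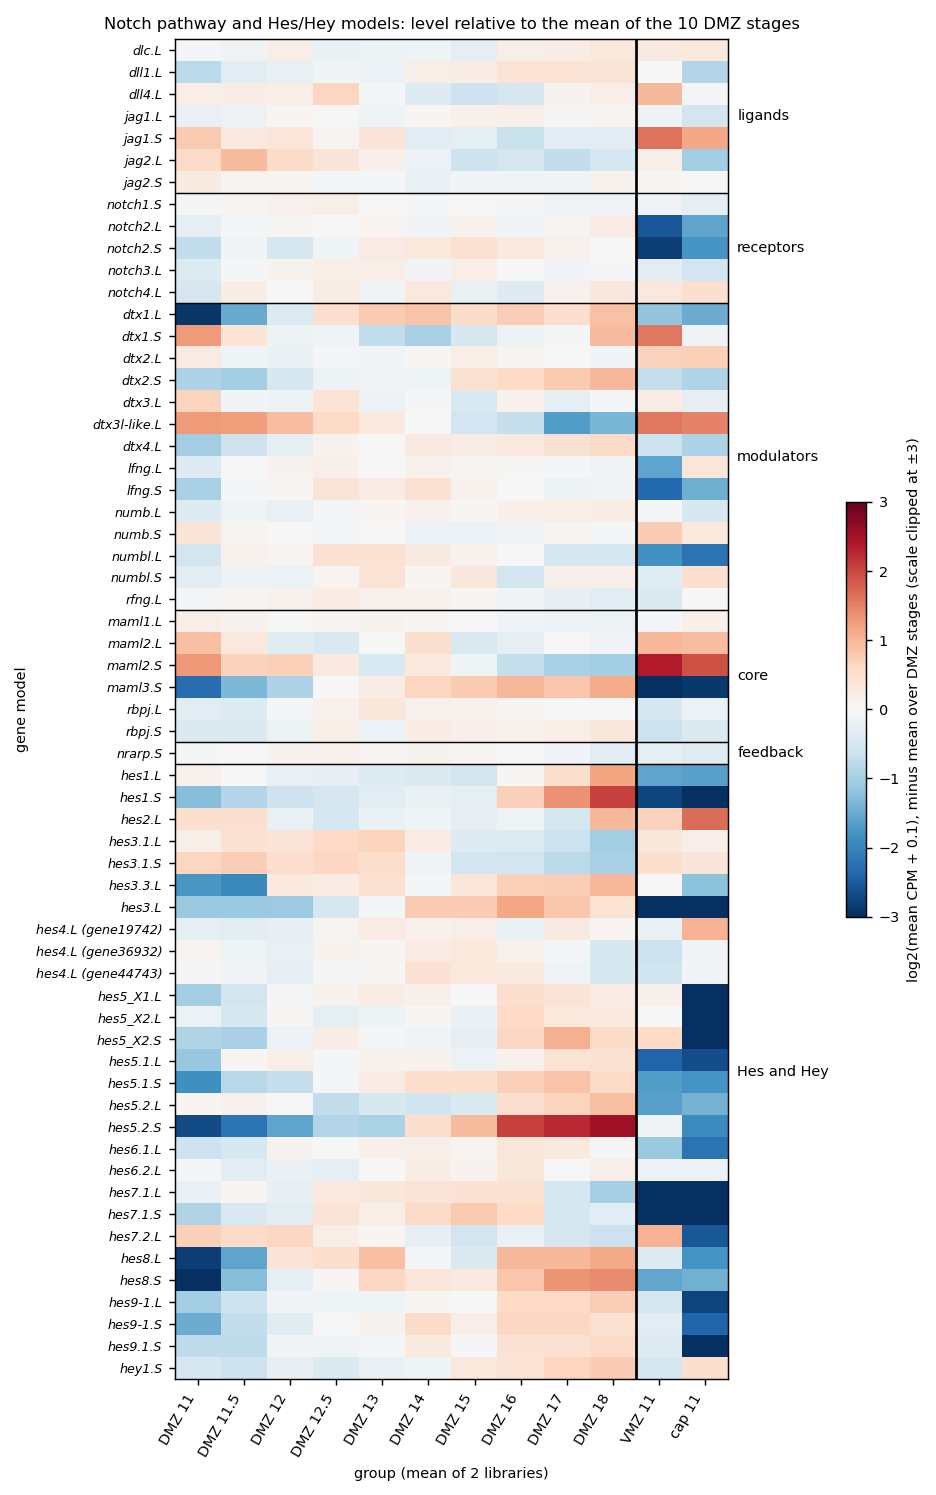
Mean level of each of the 61 Notch, Hes and Hey models (rows, by role) in the 12 groups (columns), as log2(mean CPM + 0.1) minus the model's mean over the 10 DMZ stages. Colours stop at ±3. Red marks groups above the DMZ mean and blue groups below it. The bottom block (Hes and Hey) holds most of the strong colour in the late stages, and both the VMZ and cap columns reach the dark blue end of the scale for *hes7.1.L*, *hes7.1.S*, *hes3.L* and *maml3.S*.

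The ligand gene of the Delta family *dll1.L*, whose product presents itself to Notch on neighbouring cells in the neural plate and the paraxial mesoderm, rose through the course. It had 95.2 and 116 CPM at stage 18, against 47.6 and 44.0 CPM at stage 11. Both stage-18 libraries lay above both stage-11 libraries, and the log2 change was 1.21 ± 0.29 (adjusted p = 0.00389). Its 8 gastrula libraries (stages 11 to 12.5) had a lowest, median and highest level of 44.0, 67.6 and 78.3 CPM. The 6 early neurula libraries (stages 13 to 15) had 63.2, 85.5 and 100.1 CPM, and the 6 late neurula libraries (stages 16 to 18) had 95.2, 107 and 117 CPM. These ranges overlapped between neighbouring phases. The difference between early neurula and gastrula was called (0.44 ± 0.15, adjusted p = 0.0386) and that between late and early neurula was not (0.33 ± 0.16, adjusted p = 0.198). The early neurula call was lost in 11 of 14 fits that left out 1 library (adjusted p 0.0505 to 0.112 there), and the call for any change (adjusted p = 0.042) in 19 of 20.

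The Jagged gene *jag2.L* went the other way. It had 1.40 and 1.34 CPM at stage 18, against 4.44 and 1.66 CPM at stage 11. The groups did not overlap, but the 2 stage-11 libraries differed from each other more than replicate 2 did from stage 18. The log2 change was -1.2 ± 0.46 (adjusted p = 0.0492) and was lost without DMZ stage 11 replicate 1 (0.725) or either stage-18 library (0.145 and 0.166). Over more libraries, the early neurula median was 1.74 CPM and the gastrula median 3.06 CPM (log2 change -0.87 ± 0.25, adjusted p = 0.0143, 0.0508 without DMZ stage 11 replicate 1). The other copy, *jag2.S*, stayed between 4.33 and 7.56 CPM in all 20 DMZ libraries (adjusted p for any change 0.947), so the fall was that of *jag2.L* alone. *jag1.L* stayed between 33.7 and 54.3 CPM in all 20 DMZ libraries (adjusted p for any change 0.782).

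*dlc.L*, a Delta gene that RefSeq also lists as delta-2, was not called in any comparison of stages. Its 20 DMZ libraries ran between 24.4 and 81.1 CPM (adjusted p for any change 0.996). The extremes were replicates of neighbouring stages: 24.4 and 73.4 CPM at stage 11.5 and 81.1 and 40.2 CPM at stage 12. Replicate 2 was the higher library at stage 11.5 and replicate 1 at stage 12. Its 6 late neurula libraries (58.7 to 69.6 CPM) all lay above its 6 early neurula libraries (36.7 to 57.8 CPM), and the log2 difference of 0.43 ± 0.27 was not called (adjusted p = 0.327). *dll4.L*, known from blood vessel sprouting in mouse, was at 0.38 CPM or below in every DMZ library.

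None of the 5 receptor models was called over the course or between stages 18 and 11, where 30% and 40.4% of all models were. *notch1.S* had 218 and 245 CPM at stage 18, against 292 and 201 CPM at stage 11, with overlapping groups, and its highest stage mean was 1.22 times its lowest. *notch3.L* had 307 and 303 CPM at stage 18, against 213 and 260 CPM at stage 11. The groups did not overlap, and the log2 change of 0.37 ± 0.15 was not called (adjusted p = 0.0646), while the fit with the replicate block called it (0.0266). *notch2.S* had a median of 22.9 CPM in the early neurula and 12.9 CPM in the gastrula (0.70 ± 0.27, adjusted p = 0.0578, 0.0244 with the replicate block). *notch4.L*, an endothelial Notch gene in mouse, stayed at 0.74 CPM or below in the DMZ.

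Among the modulators, 5 of 14 models were higher and 0 lower at stage 18 than at stage 11, where 20.9% and 19.6% of all models were. Fringe enzymes add sugars to Notch and shift its response between Delta and Jagged ligands, Deltex proteins are ubiquitin ligases that act on Notch, and Numb antagonises Notch during asymmetric division. *dtx4.L* had 74.7 and 76.8 CPM at stage 18, against 34.4 and 13.7 CPM at stage 11. Both late libraries lay above both early ones, with a log2 change of 1.64 ± 0.31 (adjusted p = 0.000739). Most of the rise came early: the lowest early neurula library (48.6 CPM) was above 6 of the 8 gastrula libraries, and the change of phase was 0.62 ± 0.16 (adjusted p = 0.00875).

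*dtx1.L* was near absent at the start. It had 3 counts over both stage-11 libraries (0.10 and 0 CPM) and 141 counts at stage 18 (1.84 and 2.14 CPM), a counting ratio of 24.8 with a 95% interval of 8.30 to 122. Its level climbed through the gastrula stages, with 0.49 and 0.11 CPM at stage 11.5, 1.18 and 0.33 CPM at stage 12 and 1.98 and 1.04 CPM at stage 12.5. From stage 13 on it stayed between 1.34 and 2.24 CPM. The early neurula exceeded the gastrula by 2.12 ± 0.35 on the log2 scale (adjusted p = 0.000406). *dtx2.S* had 8.80 and 9.21 CPM at stage 18, against 2.03 and 2.69 CPM at stage 11 (1.96 ± 0.48, adjusted p = 0.00435, 0.0502 without DMZ stage 11 replicate 1). Its groups did not overlap.

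*lfng.S*, a Lunatic Fringe copy, was highest in the middle of the course. Its median was 104 CPM in the gastrula libraries, 121 CPM in the early neurula and 98.6 CPM in the late neurula, and its 2 lowest libraries were those of stage 11 (46.3 and 56.5 CPM). The stage-18 libraries, at 93.3 and 96.1 CPM, lay above both (0.88 ± 0.28, adjusted p = 0.0212). That call was lost without DMZ stage 11 replicate 1 (0.129) and without either stage-18 library (0.0637 and 0.0772). The early neurula call (0.42 ± 0.15, adjusted p = 0.0433) was lost in 10 of 14 fits that left out 1 library and the call for any change (0.0455) in 16 of 20. *lfng.L* did not pass the test over the course (adjusted p for any change 0.703). *numb.S* ran from 13.0 to 25.5 CPM over the 20 DMZ libraries, with its highest stage mean at stage 11 (adjusted p for any change 0.878). Its homeolog *numb.L* had 30.4 and 28.7 CPM at stage 18, against 19.3 and 19.7 CPM at stage 11 (0.60 ± 0.18, adjusted p = 0.0156). It was not called without DMZ stage 11 replicate 1 (0.0709), DMZ stage 11 replicate 2 (0.0561) or DMZ stage 18 replicate 1 (0.0776).

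*dtx3l-like.L* split by replicate number. Replicate 2 was higher than replicate 1 in all 12 groups, with 0.787 and 1.81 CPM at stage 18 and 3.66 and 13.4 CPM at stage 11. It was lower at stage 18 than at stage 11 with the replicate block (adjusted p = 1.7e-05) and was not called without it (-2.68 ± 1.26, adjusted p = 0.104). *jag1.S*, *dtx1.S* and *hes7.1.S* also had replicate 2 above replicate 1 in all 12 groups.

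In the transcriptional core, the DNA-binding partner *rbpj.L* was higher in the early neurula than in the gastrula, with medians of 47.1 and 38.1 CPM and overlapping libraries (0.34 ± 0.10, adjusted p = 0.0144). That call was lost without DMZ stage 13 replicate 1 (0.0631) or DMZ stage 14 replicate 2 (0.066). *rbpj.S* had 9.30 and 11.6 CPM at stage 18, against 6.88 and 5.25 CPM at stage 11. No library of one stage reached the other (0.77 ± 0.21, adjusted p = 0.00946), but the call was lost without replicate 2 of either stage (0.081 and 0.0926).

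The 3 Mastermind genes, which encode the coactivator of the complex, moved apart. *maml3.S* had 5.01 and 5.13 CPM at stage 18, against 0.41 and 0.38 CPM at stage 11, with no overlap (3.65 ± 1.08, adjusted p = 0.0137). Between these stages its replicates differed several-fold, as at stage 13 with 4.67 and 0.73 CPM. The call was lost without either stage-11 library (0.0932 and 0.0662). *maml2.S* had 0.29 and 0.19 CPM at stage 18, against 2.71 and 0.51 CPM at stage 11 (-2.83 ± 0.63, adjusted p = 0.00223). Stage 11 replicate 1 was far above replicate 2, and without it the adjusted p was 0.331. *maml1.L* had 33.4 and 36.0 CPM at stage 18, against 46.3 and 44.7 CPM at stage 11. This fall was small (-0.39 ± 0.15, adjusted p = 0.0439) and was lost without any 1 of the 4 libraries (0.093 to 0.196).

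*nrarp.S*, a Notch-induced inhibitor that destabilises the intracellular domain of Notch, was at 302 and 267 CPM at stage 18, against 377 and 315 CPM at stage 11. Both stage-18 libraries lay below both stage-11 libraries, and the log2 change of -0.28 ± 0.14 was not called (adjusted p = 0.121). The late neurula median was 327 CPM and the early neurula median 386 CPM, with overlapping libraries (-0.23 ± 0.08, adjusted p = 0.0661, 0.0333 with the replicate block).

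*hes1.S* had the smallest p for any change among the 61 models (adjusted p = 1.8e-05). Its replicates 1 and 2 had 3.12 and 5.12 CPM at stage 11, 6.73 and 4.10 at stage 11.5, 7.67 and 5.37 at stage 12, and 7.13 and 7.03 at stage 12.5. They had 6.80 and 9.1 CPM at stage 13, 8.93 and 8.62 at stage 14, and 9.67 and 6.75 at stage 15. From there the level climbed in both replicates, with 18.6 and 14.8 CPM at stage 16, 20.1 and 31.8 at stage 17 and 34.3 and 50.0 at stage 18. All 6 late neurula libraries lay above all earlier ones. The log2 change was 3.39 ± 0.38 between stages 18 and 11 (adjusted p = 9.63e-06) and 1.66 ± 0.20 between late and early neurula (adjusted p = 0.000117).

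Its homeolog *hes1.L* took a different path, with a shallow dip before the same late rise. It had 56.5 and 73.5 CPM at stage 18, against 27.1 and 34.4 CPM at stage 11 (1.08 ± 0.29, adjusted p = 0.00763). Its groups were apart, and the call was lost without DMZ stage 11 replicate 1 (0.0702) or DMZ stage 18 replicate 2 (0.0704). Its median was 25.2 CPM in the gastrula, 20.4 CPM in the early neurula and 39.4 CPM in the late neurula. The late neurula libraries did not overlap with the early neurula ones (1.03 ± 0.17, adjusted p = 0.000844). The dip from gastrula to early neurula (-0.38 ± 0.16) had an adjusted p of 0.0778, and of 0.0201 under the replicate block.

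**Figure D2:**
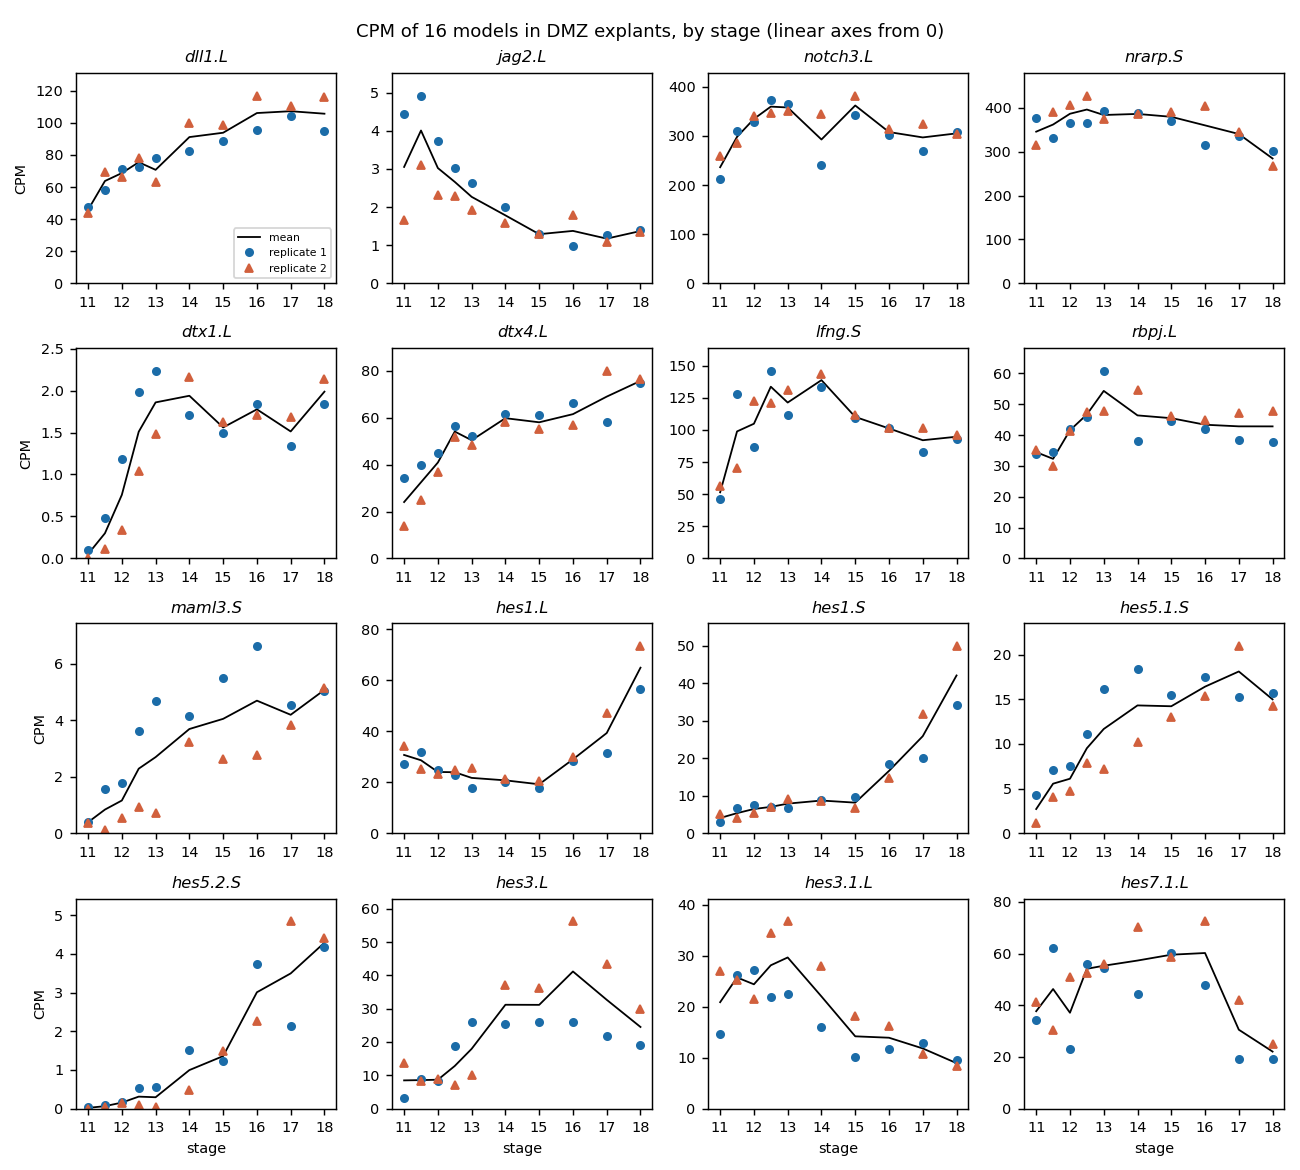
CPM (vertical axis, linear from 0) of 16 models against DMZ stage (horizontal axis), with replicate 1 as circles, replicate 2 as triangles and the stage mean as a line. *hes1.S* ends at 34.3 and 50.0 CPM after values under 10 CPM up to stage 15, and *hes3.1.L* and *jag2.L* end low. The libraries of *nrarp.S* run from 267 to 428 CPM and those of *notch3.L* from 213 to 382 CPM.

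The products of Hes5-type genes are textbook Notch effectors in the neural plate. *hes5.1.S* had 15.7 and 14.2 CPM at stage 18, against 4.31 and 1.15 CPM at stage 11. Both late libraries lay above both early ones (2.35 ± 0.50, adjusted p = 0.00169). The median was 14.2 CPM in the early neurula and 5.90 CPM in the gastrula (1.26 ± 0.25, adjusted p = 0.00152). The gastrula libraries themselves ran from 1.15 to 11.1 CPM. *hes5.1.L* had 18.4 and 16.3 CPM at stage 18, against 5.93 and 5.38 CPM at stage 11 (1.61 ± 0.35, adjusted p = 0.00182).

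*hes5.2.S* was close to undetected in the gastrula. It had 1 count over both stage-11 libraries and 304 counts at stage 18 (4.17 and 4.41 CPM), a counting ratio of 160.2 with a 95% interval of 28.5 to 6349. The late neurula libraries, from 2.14 to 4.85 CPM, lay above every early neurula library, the highest of which had 1.52 CPM (2.28 ± 0.50, adjusted p = 0.00651). The early neurula also exceeded the gastrula (2.89 ± 0.61, adjusted p = 0.0021), a call lost without DMZ stage 13 replicate 1 (0.164). *hes5.2.L* was already present, with 3.76 and 4.99 CPM at stage 11. Its late neurula libraries (4.55 to 8.93 CPM) lay above its early neurula libraries (2.13 to 3.50 CPM), with a log2 difference of 1.22 ± 0.32 (adjusted p = 0.0183). That call was lost without DMZ stage 13 replicate 2 (0.0629), DMZ stage 14 replicate 2 (0.0626) or DMZ stage 17 replicate 2 (0.0709).

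The models named *hes5_X1* and *hes5_X2*, for which RefSeq gave no match, did not pass the test over the DMZ course. *hes5_X2.L* ran from 4.64 to 22.7 CPM over the 20 DMZ libraries (adjusted p for any change 0.953). *hes9-1.S* had 17.0 and 13.6 CPM at stage 18, against 5.83 and 2.05 CPM at stage 11 (1.89 ± 0.52, adjusted p = 0.00877, 0.0874 without DMZ stage 11 replicate 2). Its groups did not overlap. *hes8.S* had 1 count and *hes8.L* 2 counts over both stage-11 libraries, against which 205 and 138 counts stood at stage 18. The counting ratios, stage 18 over stage 11, were 108 (19.2 to 4288) for *hes8.S* and 36.4 (9.88 to 303) for *hes8.L*.

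*hes3.L* was higher in the early neurula than in the gastrula, with medians of 26.0 and 8.62 CPM and overlapping libraries (1.47 ± 0.34, adjusted p = 0.00388). Its largest values were in replicate 2 of the later stages, such as 56.3 CPM at stage 16, where replicate 1 had 26.0 CPM. *hes3.3.L* also rose, to 4.90 and 2.39 CPM at stage 18, against 0.68 and 0.26 CPM at stage 11 (2.78 ± 0.76, adjusted p = 0.00902). It was not called without DMZ stage 11 replicate 2 (0.0666) or DMZ stage 18 replicate 1 (0.0673).

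A pair of Hes genes fell together. *hes3.1.L*, which RefSeq lists as a hes5-type gene, had 9.5 and 8.31 CPM at stage 18, against 14.7 and 27.0 CPM at stage 11 (-1.22 ± 0.39, adjusted p = 0.0199). Its 2 highest libraries were replicate 2 of stages 13 and 12.5 (36.8 and 34.3 CPM). The late neurula median was 11.1 CPM and the early neurula median 20.3 CPM (-0.89 ± 0.22, adjusted p = 0.0128), the one fall called between these phases. It was lost without DMZ stage 13 replicate 2 (0.0509) or DMZ stage 15 replicate 2 (0.0506). *hes3.1.S* had 3.82 and 7.27 CPM at stage 18, against 9.46 and 25 CPM at stage 11 (-1.61 ± 0.50, adjusted p = 0.0176). For the 2 copies the stage-18 libraries lay below the stage-11 libraries, but the call of *hes3.1.S* was lost without DMZ stage 11 replicate 2 (0.285) or DMZ stage 18 replicate 1 (0.15). That of *hes3.1.L* was lost without DMZ stage 11 replicate 2 (0.218) or either stage-18 library (0.0654 and 0.111).

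*hes7.2.L* was lower at stage 18 too, with 7.58 and 5.46 CPM, against 20.7 and 13.2 CPM at stage 11 (-1.38 ± 0.48, adjusted p = 0.0297). Its groups were apart, and the call was lost without DMZ stage 11 replicate 1 (0.186) or either stage-18 library (0.0639 and 0.172). Its neighbour in the RefSeq gene order, *hes7.1.L*, held its level longer. Mouse Hes7 is an oscillating repressor of the segmentation clock. *hes7.1.L* had a median of 46.1 CPM in the gastrula, 57.4 CPM in the early neurula and 33.4 CPM in the late neurula. Up to stage 16 its libraries spanned 23.2 to 72.6 CPM, and the stage-18 libraries were at 19.2 and 24.9 CPM. The late neurula difference of -0.74 ± 0.25 was not called (adjusted p = 0.0603) and was called with the replicate block (0.0168).

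The 3 models named *hes4.L* (hairy2, a gene of the early organizer, floor plate and neural plate border) did not pass the test over the course. *hes4.L* (gene19742) had 65.4 and 53.8 CPM at stage 18, against 39.7 and 53.6 CPM at stage 11. *hes4.L* (gene36932) had 15.0 and 12.7 CPM at stage 18, against 17.2 and 24.1 CPM at stage 11, and *hes4.L* (gene44743) had 15.1 and 14.0 CPM, against 17.7 and 21.8 CPM. Neither of these log2 changes was called (-0.57 ± 0.29 and -0.44 ± 0.29, adjusted p = 0.128 and 0.246). How reads were split among models of 1 name is uncertain. *hey1.S*, a Hairy-related gene with a YRPW-type ending known as a Notch target in vessels and somites, had 8.54 and 7.62 CPM at stage 18, against 3.80 and 2.82 CPM at stage 11. The groups did not overlap, and the log2 change of 1.27 ± 0.58 was not called (adjusted p = 0.092).

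By phase, 16 of the 61 models were higher and 3 lower in the early neurula than in the gastrula, where 16% of all models were higher and 16.4% lower (32.4% called in all). The block gave 8 lower, where 22.4% of all models were. Leaving out single libraries gave 6 to 17 higher and 1 to 4 lower, with 6 higher without DMZ stage 13 replicate 1. Without DMZ stage 12.5 replicate 2, stage 14 replicate 2 or stage 15 replicate 1 there were 10 higher, and without DMZ stage 11 replicate 1 or stage 11.5 replicate 2 there was 1 lower. All libraries of the 2 phases were apart for 0 members in either direction, where 2.36% of all models were so higher and 2.11% lower. For late against early neurula, 4 were higher and 1 lower, where 7.95% and 7.12% of all models were (15.1% called in all). Libraries were apart for 5 higher and 3 lower members, where 3.4% and 2.63% of all models were so. The 4 that rose were *hes1.S*, *hes1.L*, *hes5.2.S* and *hes5.2.L*, and for each of them, as for *dlc.L*, which was not called, all 6 late neurula libraries lay above all 6 early neurula libraries. With upper quartile scaling 5 were lower, where 9.38% of all models were. With the block 7 were higher and 9 lower, where 13.8% and 13% of all models were. That scaling also turned the split of all calls between these phases, with 2080 of 5019 higher against 2491 of 4722 with TMM. Muscle markers, 8 models, summed to 719 and 678 CPM at stage 18, against 28.2 and 50.9 CPM at stage 11. Neural markers, 10 models, summed to 1299 and 1608 CPM at stage 18, against 982 and 1148 CPM at stage 11, and the 18 ectoderm markers to 8117 and 7812 CPM, against 2849 and 1031 CPM. Keratins carried much of that ectoderm sum, with *krt5.7.L* at 3484 and 3430 CPM at stage 18, against 836 and 269 CPM at stage 11. Of the 18, 4 were called higher and 1 lower at stage 18 than at stage 11, where 20.9% and 19.6% of all models were. The median log2 change of the 18 was -0.01. Their part in the Hes changes was not tested.

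At stage 11 the DMZ differed from the VMZ in a few members, led by Hes genes. Of the 61, 7 were called higher in the DMZ and 0 lower, where 2.24% of all models were higher and 0.906% lower (3.14% called in all). Libraries were apart for 20 higher and 9 lower members, where 19% and 22% of all models were so. At an unadjusted p under 0.05 there were 13 higher and 8 lower, and the share of all models at that threshold was not counted. With the replicate block 12 were higher and 1 lower, where 5.22% and 3.44% of all models were. DESeq2 gave the same 2 counts, where it called 4.34% and 2.84% of all models. A fit of only these 4 libraries called 0 in either direction, and single left-out libraries gave 3 to 8 higher. The fit of only these 4 libraries called 0% of all models, so its count says nothing particular to the members. With upper quartile scaling 956 of 1163 calls over all models were higher, against 701 of 985 with TMM. The DMZ libraries here are shared with the comparison to the cap.

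*hes7.1.L* stood out, with 34.1 and 41.2 CPM in the DMZ, against 1.2 and 2.09 CPM in the VMZ and 0.69 and 1.26 CPM in the cap. Both DMZ libraries were far above the other 4. The log2 difference was 4.50 ± 0.52 from the VMZ (adjusted p = 0.000171) and 5.26 ± 0.55 from the cap (adjusted p = 2.92e-05). The VMZ and the cap did not differ beyond their spread (0.76 ± 0.51, adjusted p = 0.734). Its homeolog *hes7.1.S* had 1.15 and 3.84 CPM in the DMZ, against 0.15 and 0.25 CPM in the VMZ. That difference, 3.48 ± 1.06, had an adjusted p of 0.0863, and of 0.012 under the replicate block.

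*hes3.L* had 3.22 and 13.7 CPM in the DMZ, against 0.09 and 0.29 CPM in the VMZ and 0.15 and 0.23 CPM in the cap. The DMZ replicates differed several-fold, but both lay above the other 4 libraries. The log2 difference was 5.30 ± 0.85 from the VMZ (adjusted p = 0.0027) and 5.41 ± 0.88 from the cap (adjusted p = 0.00178). *hes1.L* had 27.1 and 34.4 CPM in the DMZ, against 8.86 and 9.90 CPM in the VMZ and 5.91 and 12.3 CPM in the cap. It was higher in the DMZ by 1.71 ± 0.30 than in the VMZ (adjusted p = 0.00498, 0.0602 without VMZ replicate 2) and by 1.75 ± 0.30 than in the cap (adjusted p = 0.00259). *hes1.S* had 3.12 and 5.12 CPM in the DMZ, against 1.78 and 1.06 CPM in the VMZ and 1.05 and 1.19 CPM in the cap. Neither of its differences, 1.51 ± 0.37 (adjusted p = 0.0401) and 1.83 ± 0.38 (0.0125), was called without DMZ replicate 2 (0.159 and 0.0906). The first was also lost without DMZ replicate 1 (0.053) or VMZ replicate 2 (0.359), and the second without either cap library (0.115 and 0.0796).

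Both Lunatic Fringe copies were higher in the DMZ than in the VMZ. *lfng.L* had 69.4 and 54.0 CPM in the DMZ, against 25.1 and 28.5 CPM in the VMZ, and 108 and 99.5 CPM in the cap. The 3 tissues did not overlap, with the cap highest and the VMZ lowest. The DMZ exceeded the VMZ by 1.21 ± 0.22 (adjusted p = 0.00834), a call lost without DMZ replicate 1 (0.0862) or VMZ replicate 2 (0.0742). The VMZ was below the cap (log2 difference -1.95 ± 0.23, adjusted p = 0.000312). The difference of the DMZ from the cap, -0.74 ± 0.22, had an adjusted p of 0.0938, and of 0.0284 under the replicate block. *lfng.S* had 46.3 and 56.5 CPM in the DMZ, against 14.1 and 26.3 CPM in the VMZ (1.34 ± 0.29, adjusted p = 0.0193). In the cap it had 32.4 and 41.1 CPM, below both DMZ libraries and above both VMZ libraries, and the cap was not called against either. Its call was lost without either DMZ library (0.0507 and 0.0855) or VMZ replicate 1 (0.0889).

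The receptor *notch2.S* had 13.3 and 7.42 CPM in the DMZ, against 3.44 and 1.31 CPM in the VMZ (2.15 ± 0.54, adjusted p = 0.0422). The groups did not overlap, but without DMZ replicate 1 the adjusted p was 0.291 and without VMZ replicate 2 it was 0.367. *notch2.L* had 28.8 and 13.1 CPM in the DMZ, against 6.24 and 2.43 CPM in the VMZ. It was not called (2.29 ± 0.61, adjusted p = 0.0538) except with the replicate block (0.0349) or DESeq2 (0.00291) among these 3 tests. *notch1.S* and *notch3.L* did not pass the test in any regional comparison, with *notch1.S* at 292 and 201 CPM in the DMZ, 256 and 214 CPM in the VMZ and 217 and 198 CPM in the cap.

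**Figure D3:**
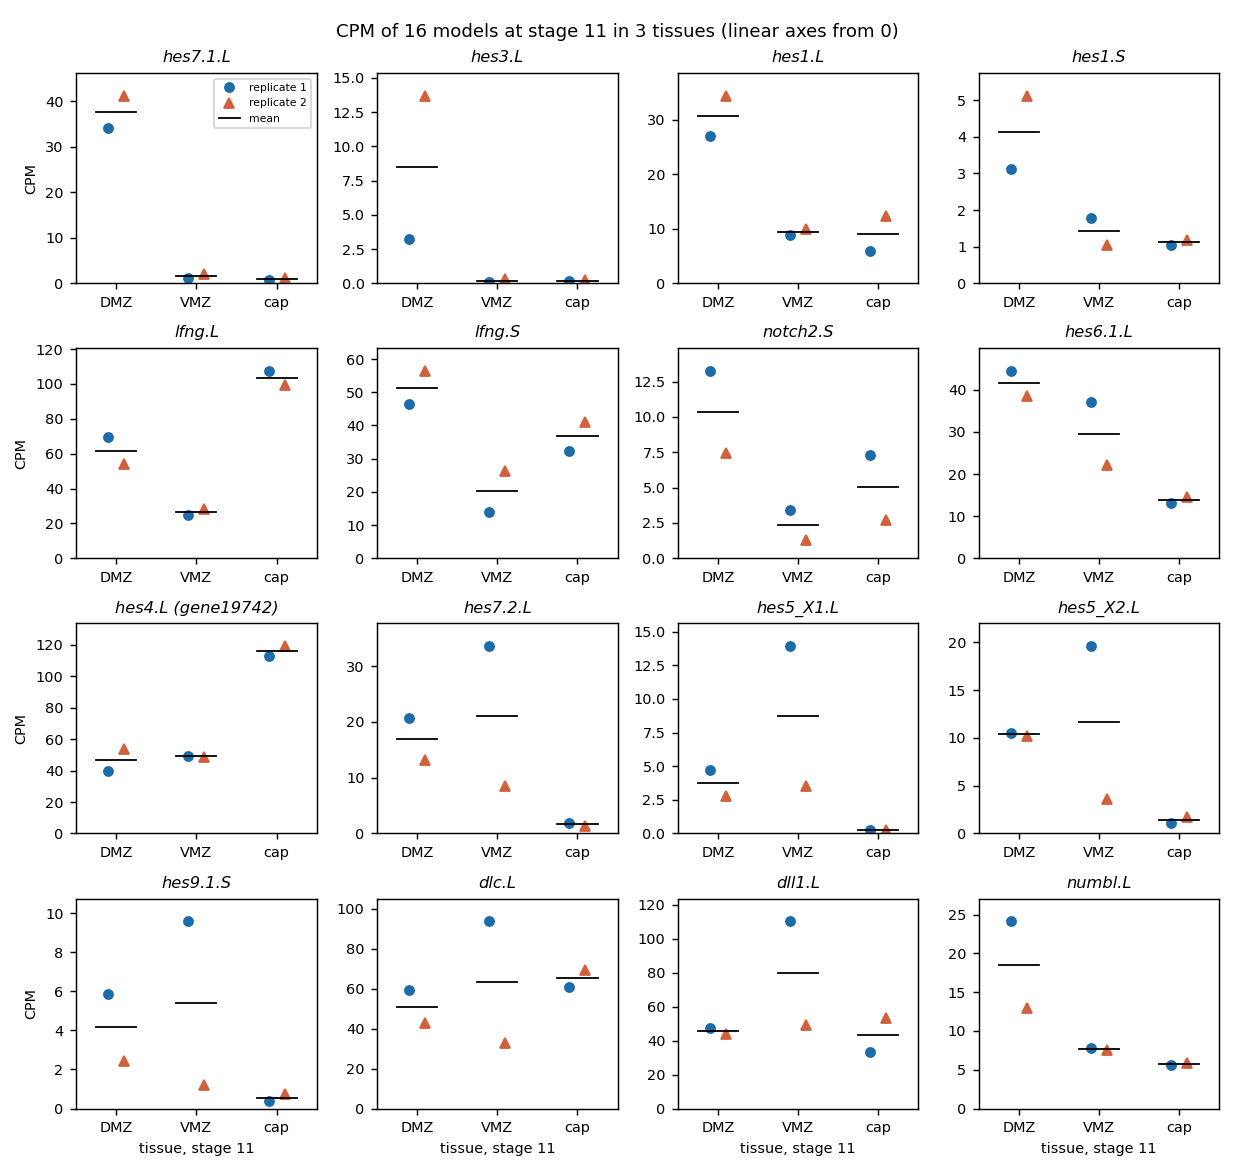
CPM (vertical axis, linear from 0) of 16 models at stage 11 in the DMZ, VMZ and cap, with replicate 1 as circles, replicate 2 as triangles and the mean as a bar. *hes7.1.L* and *hes3.L* are near 0 in the VMZ and cap, *lfng.L* is highest in the cap, and for *hes7.2.L*, *hes5_X1.L*, *hes5_X2.L*, *hes9.1.S*, *dlc.L* and *dll1.L* VMZ replicate 1 is well above replicate 2.

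Caps were cut at stage 8 and pooled by 20, and marginal zones were cut at stage 10.5 and pooled by 5 or 6. In comparisons with the cap, tissue therefore cannot be told apart from cut stage or pool size. Against the cap, 11 of the 61 members were higher in the DMZ and 1 was lower. Of all models, 2.49% were higher and 0.718% lower (3.21% called in all). Libraries were apart for 24 higher and 11 lower members, where 17.1% and 17.7% of all models were so. Hes genes made up 10 of the 11. A fit of only these 4 libraries called 2 higher and 0 lower, where it called 0.61% and 0.108% of all models. The block and DESeq2 each called 2 lower, where 1.59% and 1.52% of all models were. Single left-out libraries gave 5 to 10 higher. *hes6.1.L*, a Hes gene that in *Xenopus* favours neuronal differentiation, had 44.5 and 38.7 CPM in the DMZ, against 13.2 and 14.5 CPM in the cap (1.58 ± 0.27, adjusted p = 0.00246). *hes7.2.L* had 20.7 and 13.2 CPM in the DMZ, against 1.96 and 1.38 CPM in the cap (3.35 ± 0.52, adjusted p = 0.00123). For these models the groups did not overlap. Unlike *hes7.1.L*, *hes7.2.L* was also present in the VMZ, at 33.6 and 8.49 CPM, where it exceeded the cap by 3.65 ± 0.53 (adjusted p = 0.00152).

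The other 5 models higher in the DMZ than in the cap lost their calls when single libraries were left out. *hes5_X1.L* had 4.68 and 2.82 CPM in the DMZ, against 0.29 and 0.29 CPM in the cap (3.71 ± 0.65, adjusted p = 0.0035, 0.0542 and 0.0527 without the first and second cap library). *hes5_X2.L* had 10.5 and 10.2 CPM in the DMZ, against 1.05 and 1.74 CPM in the cap (2.89 ± 0.72, adjusted p = 0.0363), and lost its call without any 1 of the 4 libraries (0.0949 to 0.25). *hes5.1.L* had 5.93 and 5.38 CPM in the DMZ, against 1.31 and 2.51 CPM in the cap (1.57 ± 0.36, adjusted p = 0.0223). *hes9.1.S* had 5.87 and 2.43 CPM in the DMZ, against 0.36 and 0.74 CPM in the cap (2.94 ± 0.75, adjusted p = 0.0417). *numbl.L*, a Numb-like gene, had 24.2 and 12.9 CPM in the DMZ, against 5.66 and 5.83 CPM in the cap (1.71 ± 0.36, adjusted p = 0.0134). For all of these 5 models both DMZ libraries lay above both cap libraries. The S copies of *numbl*, *hes5.1* and *hes5_X2* were not called there. The mean log2 ratio of L to S counts was 4.92 in the DMZ and 2.40 in the cap for *numbl*. It was 1.31 and -0.64 for *hes5.1*, and 3.45 and 3.07 for *hes5_X2*. The S copies of *numbl* and *hes5.1* thus did not share the difference of their L copies, and *numbl.S* was at 1.45 CPM or below in every library. The call of *numbl.L* was lost without DMZ replicate 1 (0.205) or either cap library (0.112 and 0.0978), and that of *hes9.1.S* without the same 3 libraries (0.388, 0.271 and 0.131). That of *hes5.1.L* was lost without either DMZ library (0.133 and 0.0675) or cap replicate 1 (0.217).

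Of the models named *hes4.L*, only gene19742 was called between the DMZ and the cap in the main fit. The highest level of the others in any library was 28.5 CPM for gene36932 and 33.9 CPM for gene44743. *hes4.L* (gene19742) was the one member lower in the DMZ than in the cap. It had 39.7 and 53.6 CPM in the DMZ, against 113 and 119 CPM in the cap (-1.32 ± 0.27, adjusted p = 0.012). The VMZ libraries, at 49.3 and 48.8 CPM, were also below the cap (-1.25 ± 0.27, adjusted p = 0.0388). Neither call was held by every left-out fit: the first was lost without DMZ replicate 1 (0.148), cap replicate 1 (0.0552) or cap replicate 2 (0.0687), and the second without any 1 of the 4 libraries (0.12 to 0.199).

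Between the VMZ and the cap, 4 of the 61 were higher in the VMZ and 2 lower, where 0.721% and 0.313% of all models were (1.03% called in all). Libraries were apart for 18 higher and 8 lower members, where 18.5% and 14.8% of all models were so. With the block 8 were higher, where 1.61% of all models were, and DESeq2 called 8 higher, where it called 1.73%. A fit of only these 4 libraries called 0 in either direction, where it called 0% of all models. Single left-out libraries gave 2 to 9 higher and 1 or 2 lower. With upper quartile scaling 192 of 350 calls over all models were higher, against 226 of 324 with TMM. *hes5_X1.L* had 13.9 and 3.49 CPM in the VMZ, against 0.29 and 0.29 CPM in the cap (4.89 ± 0.66, adjusted p = 0.000875). *hes5_X2.S* had 5.63 and 0.65 CPM in the VMZ, against 0.11 and 0.19 CPM in the cap (4.32 ± 0.88, adjusted p = 0.0254). *hes9.1.S* had 9.60 and 1.19 CPM in the VMZ, against 0.36 and 0.74 CPM in the cap (3.26 ± 0.75, adjusted p = 0.0487). For all of these VMZ replicate 1 was several times replicate 2, and both lay above the cap. The calls of *hes5_X2.S* and *hes9.1.S* were lost without VMZ replicate 1 (0.204 and 0.447), cap replicate 1 (0.246 and 0.353) or cap replicate 2 (0.152 and 0.164).

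The ligand genes did not pass the test between tissues. *dll1.L* had 47.6 and 44.0 CPM in the DMZ, 110 and 48.9 CPM in the VMZ and 33.4 and 53.5 CPM in the cap. *dlc.L* had 59.3 and 42.6 CPM in the DMZ, 93.9 and 32.8 CPM in the VMZ and 61.1 and 69.4 CPM in the cap. The VMZ libraries spanned more than the DMZ libraries for each. *jag1.S* had 2.58 and 5.89 CPM in the DMZ, against 5.72 and 9.81 CPM in the VMZ, and was called lower in the DMZ with the replicate block (adjusted p = 0.0365) and not without it (-0.92 ± 0.49, adjusted p = 0.349).

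The VMZ libraries differed widely for many members. Of the 51 members with at least 1 CPM in the VMZ, 17 differed at least 2-fold between the replicates (33.3%, against 16.8% of all models), and replicate 1 was the higher one in 14 of them. In the DMZ at stage 11 17 of 50 did (34%, against 18.9%), 9 of them with replicate 1 higher. In the cap 7 of 44 did (15.9%, against 14.8%). In the VMZ the summed pan-mesodermal markers were at 1680 and 829 CPM, the endoderm markers at 491 and 159 CPM, the muscle markers at 32.1 and 7.0 CPM and the maternal markers at 108 and 277 CPM in replicates 1 and 2. Their part in the spread of the members was not tested.

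**Figure D4:**
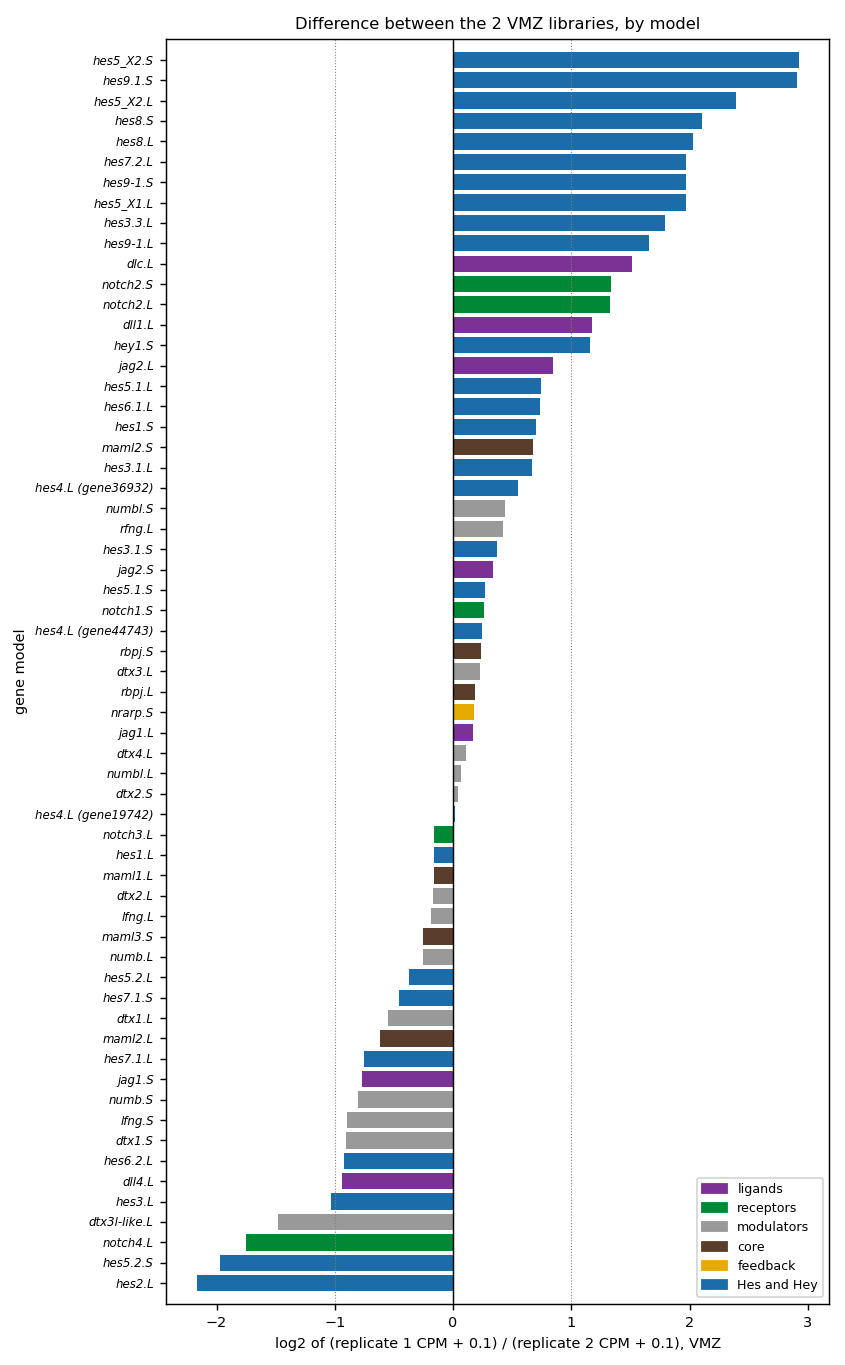
Log2 ratio of replicate 1 to replicate 2 in the VMZ (horizontal axis, with 0.1 CPM added to each value) for the 61 models (vertical axis), coloured by role. Dotted lines mark 2-fold. The 10 highest ratios are Hes models, led by *hes5_X2.S*, *hes9.1.S* and *hes5_X2.L*, followed by *dlc.L* and *notch2.S*.

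The balance of L and S copies changed in 3 of the 18 Notch pairs tested. The log2 ratio of L to S counts was tested for any change over the 10 DMZ stages with limma. This main fit called 25.4% of 5023 pairs. The share of all pairs was not counted for the other fits, so 25.4% cannot be set beside their counts. With the replicate block 10 of the 18 were called, adding *dtx1*, *hes5.1*, *notch2*, *jag1*, *jag2*, *lfng* and *numb*, and single left-out libraries gave 2 to 5. For *hes1* the log2 ratio was 0.72 and 0.56 at stage 18, against 3.11 and 2.73 at stage 11, a change of -2.29 (adjusted p = 0.00115). Both copies rose late, and *hes1.L* stayed the higher copy in counts at each stage. At stage 11 the VMZ and cap libraries had ratios near those of the DMZ, at 2.30 and 3.21 in the VMZ and 2.47 and 3.35 in the cap.

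For *hes5.2* the log2 ratio was 0.95 and 0.80 at stage 18, against 6.22 and 6.30 at stage 11 (change -5.38, adjusted p = 0.00229). The stage-11 value rests on 1 count of *hes5.2.S*. For *dtx2* it was 1.28 and 1.31 at stage 18, against 3.88 and 3.18 at stage 11 (change -2.24, adjusted p = 0.0203), and this call was lost in 3 of 20 fits that left out 1 library. Those libraries were DMZ stage 11 replicate 1 and both of stage 18, and the highest adjusted p was 0.0569. *dtx1* showed the widest span of the pairs, and between stages 11 and 18 its direction was opposite: the log2 ratio was 1.01 and -0.16 at stage 18, against -2.32 and -5.83 at stage 11 (change 4.50, adjusted p = 0.125, 0.0135 with the replicate block). The stage-11 value rests on 3 counts of *dtx1.L*. The mean ratio was highest at stage 14 (2.74) and was back at 0.43 by stage 18. *dtx1.S* differed between replicates, with 0.58 and 3.58 CPM at stage 11. How reads shared by near-identical copies were divided between L and S was not checked, so these ratios are uncertain to that extent.

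**Figure D5:**
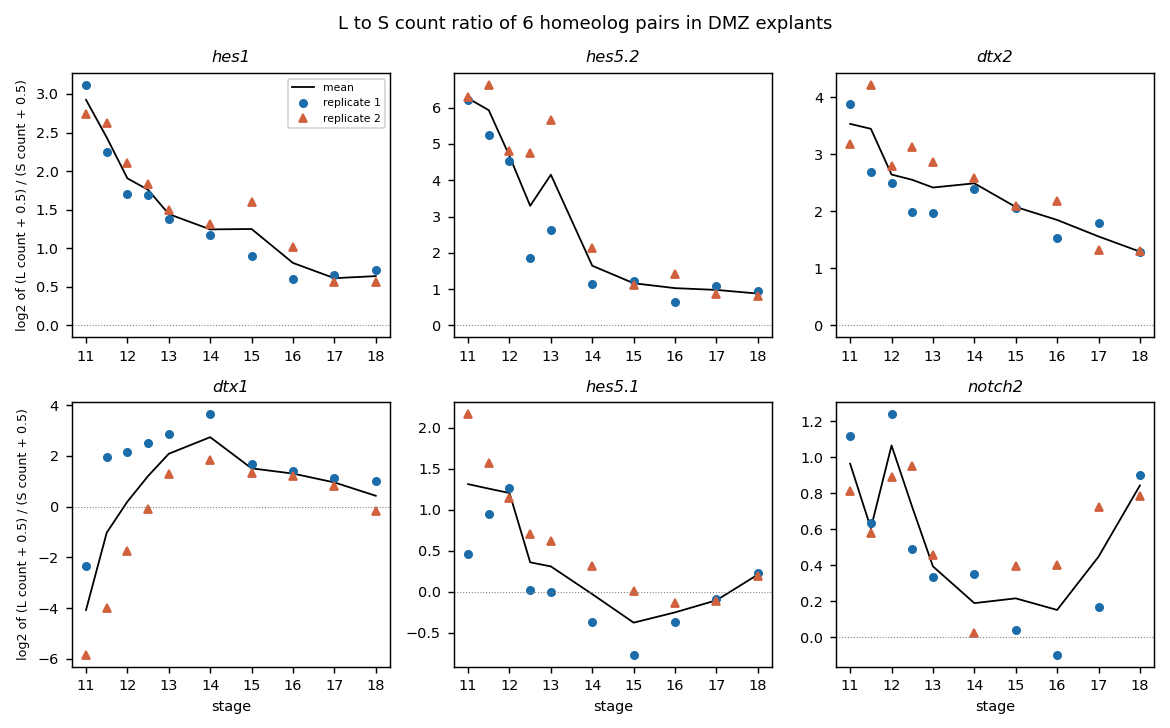
Log2 of (L count + 0.5) over (S count + 0.5) against DMZ stage for 6 homeolog pairs, with replicate 1 as circles, replicate 2 as triangles and the mean as a line. The dotted line at 0 marks equal counts. *hes1* goes down to 0.72 and 0.56 at stage 18, *hes5.2* and *dtx2* also end lower than they start, and *dtx1* starts below 0.

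Other genes of the pathway, none of them a member, moved both ways, as did all models. Of 43 models for Notch processing, glycosylation, ubiquitination and corepressors, 10 were higher and 11 lower at stage 18 than at stage 11. Of all models, 20.9% were higher and 19.6% lower. The median log2 change of the 43 was -0.00. *psen2.S*, which encodes a presenilin of the gamma-secretase that cuts Notch, averaged 10.8 ± 0.67 CPM at stage 18 and 1.95 ± 0.59 CPM at stage 11 (2.43 ± 0.28, adjusted p = 1.28e-05). *mib2.S*, a ubiquitin ligase of Notch ligands, averaged 0.65 ± 0.05 CPM at stage 18 and 15.0 ± 3.3 CPM at stage 11 (-4.52 ± 0.69, adjusted p = 0.000124). *itch.S*, a ubiquitin ligase of Notch, averaged 7.05 ± 0.47 CPM at stage 18 and 25.4 ± 3.0 CPM at stage 11 (-1.85 ± 0.28, adjusted p = 0.000111). *ctbp1.S*, a corepressor gene, averaged 2.24 ± 0.36 CPM at stage 18 and 20.7 ± 3.3 CPM at stage 11 (-3.20 ± 0.35, adjusted p = 8.69e-06). At stage 11, edgeR called 0 of the 43 between the DMZ and the cap, where 3.21% of all models were called. At an unadjusted p under 0.05, 3 were higher and 1 lower, and the share of all models there was not counted. *psen2.S* was the one called between the DMZ and the VMZ (1.95 ± 0.59 against 4.64 ± 0.70 CPM, -1.2 ± 0.28, adjusted p = 0.0266), where 3.14% of all models were called.

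Proneural genes, which Hes repressors hold back in lateral inhibition, and neuron genes made up a list of 31 models. Of these, edgeR called 21 higher and 0 lower at stage 18 than at stage 11, with a median log2 change of 2.87. Of all models, 20.9% were called higher and 19.6% lower. At an unadjusted p under 0.05, 23 of the list were higher and 0 lower, and the share of all models there was not counted. *ebf2.S*, a neuronal differentiation factor, averaged 14.0 ± 1.9 CPM at stage 18 and 0.23 ± 0.15 CPM at stage 11 (5.64 ± 0.50, adjusted p = 1.37e-06). *tubb2b.S*, a tubulin of neurons, averaged 59.4 ± 12 CPM at stage 18 and 0.82 ± 0.29 CPM at stage 11 (6.29 ± 0.70, adjusted p = 8.86e-06). Between late and early neurula 14 were higher and 1 lower, where 7.95% and 7.12% of all models were. The neurogenin *neurog3.S* was higher in the DMZ at stage 11, at 4.98 ± 0.16 CPM, than in the VMZ, at 1.29 ± 0.39 CPM (1.95 ± 0.39, adjusted p = 0.0126).

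Of 25 presomitic and segmentation models tested, 11 were higher and 1 lower at stage 18 than at stage 11, where 20.9% and 19.6% of all models were. Their median log2 change was 1.79. Between late and early neurula 2 were higher and 2 lower, where 7.95% and 7.12% of all models were. *tbx6.S*, a T-box gene of the presomitic mesoderm, averaged 24.4 ± 3.5 CPM at stage 18 and 0.51 ± 0.19 CPM at stage 11 (5.73 ± 0.95, adjusted p = 0.000235). *tcf15.L*, a gene of the forming somite, averaged 16.1 ± 1.0 CPM at stage 18 and 1.53 ± 0.19 CPM at stage 11 (3.42 ± 0.52, adjusted p = 0.000123). *cyp26a1.S*, which encodes a retinoic acid degrading enzyme, was lower in the late than in the early neurula, at 51.7 ± 20.0 and 109 ± 28 CPM (-1.11 ± 0.20, n = 6 libraries each, adjusted p = 0.00173). Against the cap, edgeR called 6 higher in the DMZ and 0 lower, where 2.49% and 0.718% of all models were called. At an unadjusted p under 0.05, 11 were higher and 0 lower, and the share of all models there was not counted. The VMZ also exceeded the cap, with 4 called higher and 0 lower, where 0.721% and 0.313% of all models were. The median log2 difference from the cap was 1.56 for the DMZ and 2.31 for the VMZ. Between the DMZ and the VMZ 0 of the 25 were called, where 3.14% of all models were, with a median of -0.71.

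Of the 4 models counted apart, *dlc1.L* fell. It had 17.3 and 14.0 CPM at stage 18, against 138 and 91.3 CPM at stage 11, with no overlap (-2.88 ± 0.28, adjusted p = 2.88e-06). The other 3 were not called in that comparison.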

How the data were processed

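RNA sequencing libraries of 24 explant samples in 12 groups of 2 were analysed. The table of counts that the authors deposited gives whole numbers for 31694 gene models. Per the submitters' processing notes, the tools included Trim Galore, kallisto and DESeq2. Their versions and order, the genome build and the use of strand are not stated in the sources at hand. A second deposited table pairs model IDs with names and holds the authors' adjusted p-value, whose test it does not state.

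The filter filterByExpr (minimum count 10, minimum total 15) left 31349 models. All 24 libraries entered 1 quasi-likelihood fit, with a mean per group and TMM scaling (R 4.3.3, edgeR 4.0.16, robust; 12 residual degrees of freedom, biological coefficient of variation 0.33). With 2 libraries per group, the estimate of spread is shared over all groups. The SE is the absolute log2 fold change divided by the square root of F. For the ratio of L to S, limma 3.58.1 was run on log2 counts with an offset of 0.5. Counting ratios carry exact 95% intervals, for counting error only. The tests were tried on simulated data with known changes. For the ratio, L counts were redrawn at a fixed L share per pair apart from these changes, without the spread of the ratio between replicates. That trial therefore cannot show how often the ratio test calls falsely in these libraries.

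The members and lists were chosen with earlier results of these data known. Named were, by smallest p, up to 8 members per role called over the DMZ stages, up to 12 called in each of DMZ against VMZ and DMZ against cap, up to 8 per neurula comparison, up to 6 L to S pairs and up to 4 other pathway genes per comparison. *notch1*, *dll1*, *dlc*, *jag1*, *hes4*, *hes5*, *hes7.1*, *hey1*, *nrarp*, *lfng* and *rbpj* were named whatever their result. Some further members are described by their values, chosen after these were seen. Libraries with the same replicate number deviated together from their group means in all 66 pairs of groups (r 0.24 to 0.67 across genes, median 0.41). The main fit nevertheless had no term for replicate number. Only the replicate block, run as an alternative, took these libraries as paired, on this check and not on the labels. Alternatives were RLE and upper quartile scaling, no filter, DESeq2 1.42.0, a filter of 1 CPM in 4 libraries, the replicate block, fitting the compared groups alone, summed L and S counts, and each library left out. RefSeq (Xenopus_laevis_v10.1) gave names and gene order: 48 members matched by symbol, 3 by synonym and 14 not.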

Additional observations from a re-analysis of the deposited data

How the results depend on the processing

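No called value turned its direction under any alternative run. Counts of members called moved by over 1.5 times as follows. For any change over the DMZ stages, DESeq2 gave 25 and the replicate block 28, against 16. With L and S counts summed, 3 models were lower at stage 18 than at stage 11 (6 with copies apart). That fit called 18.3% of all models lower there. It gave 2 higher in the late than in the early neurula (4 with copies apart), where it called 7.9% of all models higher. Each of the 18 pairs counts once in that fit, so its counts cannot be set beside those with copies apart. The 4 late calls with copies apart were both copies of *hes1* and of *hes5.2*. The replicate block gave 8 lower in the early neurula than in the gastrula, 7 higher and 9 lower in the late than in the early neurula, 12 higher and 1 lower in the DMZ than in the VMZ, 2 lower in the DMZ than in the cap, 8 higher in the VMZ than in the cap, and 10 pairs with a changed L to S ratio. DESeq2 gave 4 lower in the late neurula, where it called 8.82% of all models lower. It gave 12 higher and 1 lower in the DMZ than in the VMZ. Against the cap it gave 2 lower in the DMZ and 8 higher in the VMZ. A fit of only the groups compared gave 9 higher and 8 lower in the late neurula, 0 higher in the DMZ than in the VMZ, 2 higher and 0 lower in the DMZ than in the cap, and 0 higher and 0 lower in the VMZ than in the cap. Of all models, that fit called 13.6% higher and 10.8% lower in the late neurula. It called 0.61% higher and 0.108% lower in the DMZ than in the cap, and 0% in the other 2 tissue comparisons. For late against early neurula, upper quartile scaling gave 5 lower, where 9.38% of all models were. The filter of 1 CPM in 4 libraries gave 2 lower there, where 9.69% of all models were. Beyond that counting of pairs, the cause of these moves was not tested. The block ended no call and added 59, counted over models and comparisons and with the L to S pairs included. Where such a call of a model is described above, its value stands beside it.

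Leaving out 1 library gave 8 to 17 changed over the DMZ stages, 13 to 15 higher and 1 to 3 lower at stage 18, 6 to 17 higher and 1 to 4 lower in the early neurula, and 3 to 4 higher and 0 to 2 lower in the late neurula. It gave 3 to 8 higher and 0 to 1 lower in the DMZ than in the VMZ, 5 to 10 higher and 0 to 1 lower in the DMZ than in the cap, 2 to 9 higher and 1 to 2 lower in the VMZ than in the cap, and 2 to 5 changed ratios. With 1 library left in a group, that library was assumed to vary like the other groups. The number of all models called moved in these fits too, so the ranges of model counts say nothing particular to the members. The shallowest library, DMZ stage 11 replicate 2 with 7375650 counts, enters every stage-11 comparison of the DMZ, and models with few counts there carry wide intervals.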

Other observations

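In the authors' deposited table, 39 of the 61 Notch, Hes and Hey models (63.9%) carry the mark for differential expression, against 13913 of the 31694 models (43.9%). What that mark tests is not stated there. In that deposited table *dll1.L* carries the mark and *dlc.L* does not. Among the receptors *notch2.L*, *notch2.S* and *notch3.L* carry it, and *notch1.S* and *notch4.L* do not.

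Some members lie next to each other in the RefSeq gene order: *hes7.2.L* with *hes7.1.L*, *hes6.1.L* with *hes6.2.L*, and *hes5.2* with *hes5.1* on both the L and the S side. At stage 11 in the VMZ, *hes7.2.L* had 33.6 and 8.49 CPM, and *hes7.1.L* had 1.2 and 2.09 CPM.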
